A study of Mus musculus with 8 samples.

Results

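Tbx1, Tbx2, Tbx3, Tbx5 and Tbx20 are the T-box transcription factors that pattern the developing mouse heart, and their levels were examined in ventricles at embryonic day 15.5 (E15.5). The genes were taken by name, 5 of the 53465 genes in the deposited table, and 4 of them passed a filter on low counts that left 15388 genes for testing. RNA-seq was performed on heart ventricles from 4 wild-type (WT) replicates and 4 replicates of the genotype Nrg-1flox;Cdh5-CreERT2, called Flox in the sample names. Cdh5-CreERT2 places a Cre recombinase that tamoxifen activates under an endothelial promoter, so that floxed Nrg1, which encodes the growth factor neuregulin-1, is meant to be cut in endothelial and endocardial cells and not in cardiomyocytes. Each replicate was 1 ventricle per the labels, and the time of tamoxifen treatment and the treatment of WT embryos are not given in the sources used here. Polyadenylated RNA (100 ng of total RNA as input) was made into directional libraries and sequenced as 60-base single reads.

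T-box proteins bind DNA through a shared domain that recognises a short sequence containing GGTGTG, and they differ in what they recruit there. Tbx5 and Tbx20 activate the working chamber program together with Nkx2-5 and Gata factors, and Tbx20 also holds Tbx2 out of the chambers. Tbx2 and Tbx3 repress chamber genes such as Nppa and Gja5 by competing for the same sites, Tbx2 mainly in the atrioventricular canal and outflow tract under the cushions and Tbx3 in the conduction system. Tbx1 acts earlier, in the pharyngeal second heart field that supplies the outflow tract.

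The letters that this family recognises are shown here in the promoters of 4 list genes in which they occurred, beside the promoter of Tbx20, the most abundant of the 5 factors, in which they did not. Tbx1 had no match either, and no promoter sequence was at hand for Tbx2, Tbx3 or Tbx5. Sequences are from RefSeq on GRCm38.p6, read 5′ to 3′ on the strand of the gene and upstream of its RefSeq start, with the T-box letters in capitals. Nppa, the atrial natriuretic peptide gene, is shown for all 250 bases and the others, apart from Tbx20, for the 46 bases around the match.
Nppa (chr4:148000472-148000721, plus strand): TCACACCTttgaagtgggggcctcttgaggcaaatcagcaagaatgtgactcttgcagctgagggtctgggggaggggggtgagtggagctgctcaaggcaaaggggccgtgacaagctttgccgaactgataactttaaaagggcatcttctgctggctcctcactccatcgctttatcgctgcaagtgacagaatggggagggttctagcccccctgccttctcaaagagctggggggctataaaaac
Nppb (chr4:147985653-147985698, plus strand): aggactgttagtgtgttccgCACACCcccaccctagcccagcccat
Hey2 (chr10:30842887-30842932, minus strand): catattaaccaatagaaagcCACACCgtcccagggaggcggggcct
Tgfb2 (chr1:186706104-186706149, minus strand): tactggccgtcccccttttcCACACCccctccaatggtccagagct
Tbx20 (chr9:24774304-24774553, minus strand, no match): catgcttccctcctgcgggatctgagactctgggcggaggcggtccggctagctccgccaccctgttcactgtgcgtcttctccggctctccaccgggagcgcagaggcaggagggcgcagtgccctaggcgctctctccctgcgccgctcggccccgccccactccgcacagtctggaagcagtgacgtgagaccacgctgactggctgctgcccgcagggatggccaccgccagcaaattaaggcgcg
Promoters were searched on both strands, over 250 bases before and 50 after the start, for GGTGTG, which reads CACACC on the other strand, and for the longer AGGTGTGA, which contains it and reads TCACACCT on the other strand. The shorter form was found in 8 of 48 list genes with a promoter sequence (Chd4, Hey2, Mef2c, Mga, Mycn, Nppa, Nppb and Tgfb2), against 6257 of all 32851 promoters (19.0%). The longer form was found in 419 promoters (1.28%) and in 1 list gene, Nppa, where it lay 250 to 243 bases before the start. Such matches describe letters in these windows and not binding.

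The libraries held 16761763 to 24144272 expected counts, scaling (TMM) factors were 0.988 to 1.01, and no pair of libraries was a copy of another. Values are given as CPM, the count of a gene relative to the size of its library after TMM scaling. Nrg1 was not lower in the Flox libraries, at 4.87 ± 0.636 CPM in WT and 6.17 ± 0.611 CPM in Flox (SD, n = 4). The log2 fold change of Nrg1 was 0.34 (95% confidence interval 0.08 to 0.60, edgeR adjusted p = 0.311). Gene-level counts include transcripts from every cell type and from exons outside the floxed sequence, and the recombination itself was not measured, so the group is called the Flox-labelled libraries below. Ventricular markers (Myl2, Myl3, Myh7, Tnnt2, Actn2 and Irx4) summed to 31129.4 to 35062.9 CPM, whereas 5 of 6 lung markers were at 0 in all libraries. Endothelial markers summed to 984.8 to 1012.8 CPM in WT and 923.0 to 990.0 CPM in Flox-labelled libraries, and none of 6 passed the test. Of these, 4 had an unadjusted p below 0.05 in edgeR, which 10.5% of all tested genes reached. Kdr (-0.17, edgeR adjusted p = 0.0693), Tie1 (-0.17, adjusted p = 0.121) and Pecam1 (-0.09, adjusted p = 0.357) were lower. Emcn was higher (0.18, edgeR adjusted p = 0.358). The groups did not overlap for Kdr and Tie1, as for 6.05% of all tested genes, while Cdh5 itself differed by 0.01 on the log2 scale. Although each replicate was labelled as 1 ventricle, Xist and Y-linked transcripts occurred together, each at over 20 counts, in 7 of 8 libraries. These were not traces, as Xist had 1749.6 to 6730.5 counts in those 7 libraries. The summed Y-linked genes had at least 1022.1 counts in every library. The Y-linked sum was 69.3 to 171.2 CPM in WT (mean 119.3) and 42.9 to 119.9 CPM in Flox-labelled libraries (mean 72.4). A fit with this sum as a covariate may therefore also take up part of a difference between the groups. Nothing in the labels says how the replicates were collected beyond this, so whether each library stands for a separate embryo is not known. The p-values set the difference between the groups against the spread between these libraries.

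The T-box factors were present at very different levels. Because CPM values grow with the length of a transcript, levels of different genes were compared per kilobase of exonic sequence (CPM per kb, mean ± SD over all 8 libraries). Tbx20 stood first at 36.0 ± 2.58 CPM per kb and Tbx5 second at 9.35 ± 0.784, followed by Tbx2 at 2.83 ± 0.212, Tbx3 at 1.54 ± 0.171 and Tbx1 at 0.0877 ± 0.0454 CPM per kb. Tbx20 was 3.85 times as high as Tbx5, Tbx5 3.30 times as high as Tbx2, Tbx2 1.84 times as high as Tbx3 and Tbx3 17.6 times as high as Tbx1. No neighbours in this order overlapped over the 8 libraries. The order was the same with the length of the longest transcript in place of all exonic bases, and the gap between Tbx2 and Tbx3 was then 1.39. These are levels over whole ventricles, and in bulk tissue a gene that is low in all cells and a gene that is high in few cells cannot be told apart, nor can fewer cells of a type from less RNA per cell.

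Other T-box genes give these levels a scale. Tbx18, a factor of the epicardium and its derivatives, was at 11.0 CPM per kb (range 9.98 to 12.1), a range that overlapped that of Tbx5 (8.3 to 10.3). Mga, a large protein that carries both a T-box and a second DNA-binding domain, was at 6.42 CPM per kb (range 6.16 to 6.62), between Tbx5 and Tbx2. The remaining 10 of the 12 other T-box genes did not pass the filter, and the highest of these, T, was at 0.119 CPM per kb. Tbx1 therefore lay among the T-box genes that were barely detected.

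**Figure D1:**
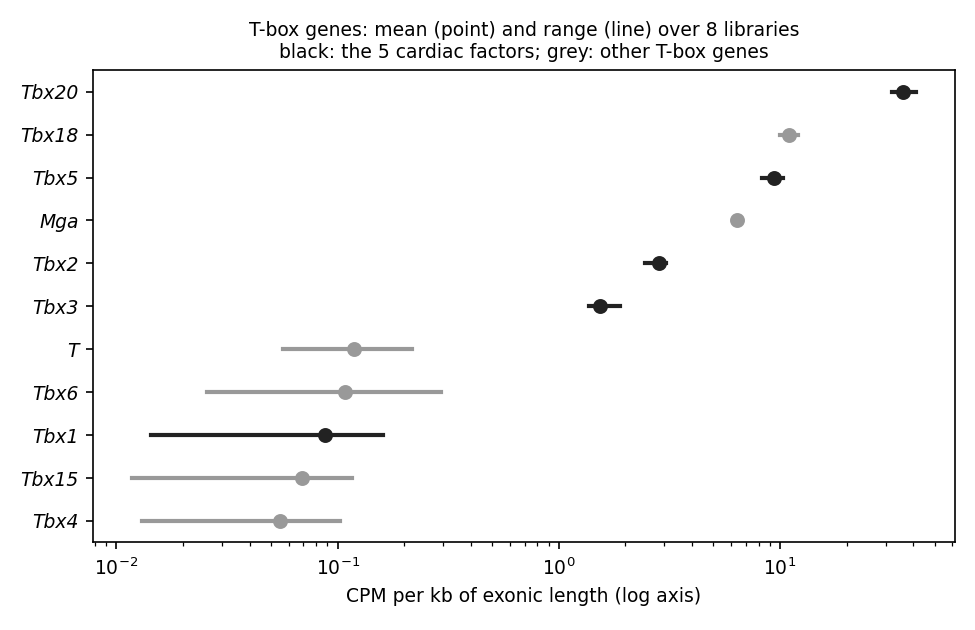
Levels of T-box genes in CPM per kb of exonic length on a log axis, for those with counts in every library. Points are means and lines the range over 8 libraries. Tbx20 (36.0) and Tbx5 (9.35) lie above Tbx2 (2.83) and Tbx3 (1.54), and Tbx1 (0.0877) lies among the genes with few counts.

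To ask whether the chamber activators differed between the groups, Tbx5 and Tbx20 were compared between WT and Flox-labelled ventricles. Neither passed the test, while 81 of 15388 genes did at a false discovery rate (FDR) of 0.05 (0.526%). Tbx5 differed by -10.7% on average (95% confidence interval -17.7% to -3.17%), the largest difference among the 4 tested factors relative to its error. Tbx20, the most abundant factor, was 3.09% higher on average, with an interval from -5.55% to 12.5%.

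Tbx5 (ENSMUSG00000018263, chr5:119832668-119885219, plus strand) is the factor whose haploinsufficiency causes Holt-Oram syndrome in humans. Its levels were 42.1, 48.1, 46.6 and 47.8 CPM in WT libraries 1 to 4 (46.1 ± 2.79, SD, n = 4). In Flox-labelled libraries 1 to 4 they were 38.8, 41.9, 39.5 and 45.0 CPM (41.3 ± 2.79, SD, n = 4). Of the Flox-labelled libraries 3 lay below every WT library, and library 4 lay above WT library 1, so the groups overlapped. The log2 fold change was -0.16 (SE 0.0541, interval -0.28 to -0.05), and edgeR's adjusted p = 0.277. Before adjustment the edgeR p was 0.00998, and a p below 0.05 before adjustment was reached by 1622 of all tested genes (10.5%), 833 of them lower (5.41%) and 789 higher (5.13%). Tbx5 was lower under each of 20 alternative settings (-0.20 to -0.13) and passed the threshold in none, the lowest adjusted p being 0.0798 in edgeR without the filter.

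Tbx20 (ENSMUSG00000031965, chr9:24718138-24774303, minus strand) was at 413.9, 443.3, 416.9 and 428.7 CPM in WT libraries (425.7 ± 13.4, SD, n = 4). The Flox-labelled libraries held 447.8, 430.6, 491.5 and 385.1 CPM (438.8 ± 44.0, SD, n = 4). They held both the highest and the lowest of the 8 values, libraries 3 and 4, on either side of all WT libraries. The log2 fold change was 0.04 (SE 0.0584, interval -0.08 to 0.17, edgeR adjusted p = 0.865). Its coefficient of variation was 3.14% among WT and 10.0% among Flox-labelled libraries, whereas counting error alone would give 1.04%. The difference in spread between the groups was not tested. Without Flox-labelled library 3 the log2 fold change was -0.02, and with the Y-linked sum as a covariate it was -0.04, so Tbx20 had no stable direction.

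Of the repressors, Tbx2 and Tbx3 had nearly the same CPM and neither passed the test. Tbx2 was 3.75% higher on average in Flox-labelled libraries (interval -8.82% to 18.1%) and Tbx3 differed by -10.0% (interval -22.1% to 3.96%). The intervals were wider than those of the activators, and the counts behind them were lower, at 188 to 254 per library for Tbx2 and 178.6 to 286 for Tbx3, against 763.5 to 1090 for Tbx5.

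Tbx2 (ENSMUSG00000000093, chr11:85832551-85841948, plus strand), which holds back chamber differentiation in the atrioventricular canal, was at 10.7, 8.83, 9.69 and 11.1 CPM in WT libraries (10.1 ± 1.02, SD, n = 4). Its levels were 10.1, 10.7, 10.0 and 11.1 CPM in Flox-labelled libraries (10.5 ± 0.488, SD, n = 4). All 4 Flox-labelled values lay within the range of the WT values. The log2 fold change was 0.05 (SE 0.0861, interval -0.13 to 0.24, edgeR adjusted p = 0.894), and without WT library 2, the lowest, it was -0.01. The coefficient of variation over 8 libraries was 7.47%, close to the 6.73% that counting error gives.

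Tbx3 (ENSMUSG00000018604, chr5:119670669-119684724, plus strand), which keeps the sinus node and atrioventricular conduction axis from acquiring a chamber phenotype, was at 10.1, 10.1, 10.1 and 12.6 CPM in WT libraries (10.7 ± 1.24, SD, n = 4). The Flox-labelled libraries held 9.05, 9.48, 9.19 and 10.9 CPM (9.65 ± 0.844, SD, n = 4). Library 4 was the highest in each group, and Flox-labelled library 4 lay above 3 of the WT libraries. The log2 fold change was -0.15 (SE 0.0963, interval -0.36 to 0.06, edgeR adjusted p = 0.632). Library 4 was also the one with the highest Y-linked sum in each group, at 171.2 and 119.9 CPM, and Pearson's r of Tbx3 with the Y-linked sum was 0.81 over the 8 libraries. With that sum as a covariate the log2 fold change of Tbx3 was -0.01, and without WT library 4 it was -0.06. Because the sum was lower on average in Flox-labelled libraries, that fit cannot tell the 2 apart. Tbx3 shares 115 exonic bases (1.74% of its exons) with the antisense gene Tbx3os1, which had 1 to 8.53 counts, and whether counting used the strand is not stated in the sources used here.

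Tbx1 (ENSMUSG00000009097, chr16:18580979-18590671, minus strand), the gene associated with DiGeorge syndrome, was barely detected. WT libraries held 8, 5, 13 and 7 counts and Flox-labelled libraries 1, 4, 8 and 7 counts, 53 in all. Its mean level was 0.366 ± 0.146 CPM in WT and 0.251 ± 0.171 CPM in Flox-labelled libraries (SD, n = 4). The groups overlapped, the gene did not pass the filter, and a difference between the groups was not detectable at this depth.

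**Figure D2:**
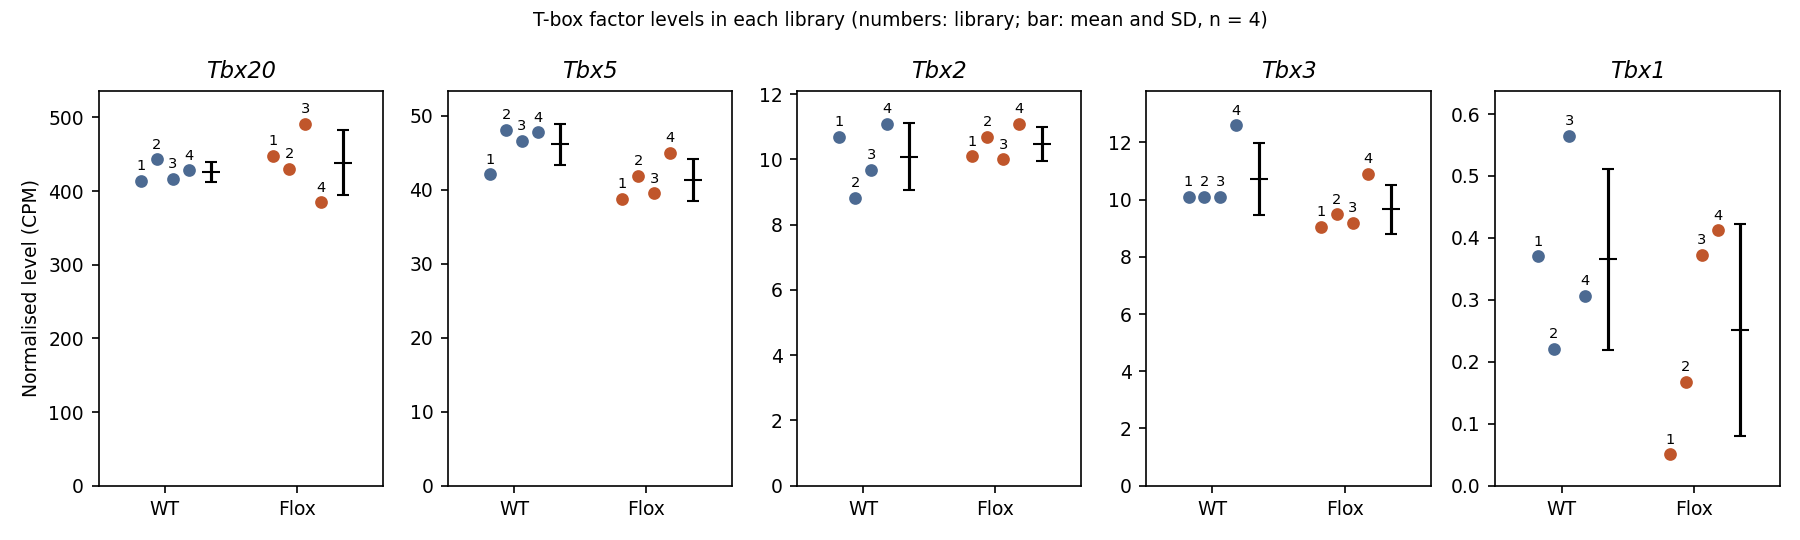
Level of each T-box factor in CPM (y axes start at 0 and differ between panels) in each WT (blue) and Flox-labelled (orange) library, numbered by library, with the mean and SD of 4 libraries. The groups overlap for all 5 genes, Tbx5 is lowest in Flox-labelled libraries 1 to 3, and Tbx3 is highest in library 4 of each group.

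None of the 5 factors had groups that lay apart, against 931 of the 15388 tested genes (6.05%), 473 of which were higher (3.07%) and 458 lower (2.98%). The median log2 fold change of the 4 tested factors was -0.05, against -0.001 over all tested genes, and 2 lay above and 2 below 0. No 60-base stretch of Tbx1, Tbx2, Tbx5 or Tbx20 transcripts occurred in another gene, and 57 of 6670 stretches of Tbx3 (0.85%) occurred in Tbx3os1. Reads of the 5 factors are therefore not divided with one another by exact sequence, although the expected counts of Tbx20 were not whole in 8 of 8 libraries and those of Tbx5 in 6 of 8.

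The repressors were then set against the activators within each library, as the log2 ratio of Tbx2 plus Tbx3 to Tbx5 plus Tbx20 in CPM per kb. The ratio was -3.28, -3.58, -3.41 and -3.21 in WT libraries (-3.37 ± 0.161, SD, n = 4) and -3.46, -3.36, -3.57 and -3.15 in Flox-labelled libraries (-3.39 ± 0.179, SD, n = 4). The activators exceeded the repressors 10.4-fold per length in both groups, and the difference of -0.01 between the groups was far smaller than the SD within either. Each sum weighs its factors by level, with Tbx20 at 36.0 and Tbx5 at 9.35 CPM per kb, and Tbx2 at 2.83 and Tbx3 at 1.54. The ratio therefore follows Tbx20 and Tbx2 more than Tbx5 and Tbx3, and does not show that each factor was unchanged. Within each pair of factors the values shifted more. The log2 ratio of Tbx2 to Tbx3 in CPM was 0.09, -0.19, -0.06 and -0.18 in WT and 0.16, 0.17, 0.13 and 0.02 in Flox-labelled libraries, with means of -0.08 ± 0.131 and 0.12 ± 0.0667 (SD, n = 4). Of the Flox-labelled libraries 3 lay above all WT libraries, and library 4 lay below WT library 1. The log2 ratio of Tbx5 to Tbx20 was -3.21 ± 0.0634 in WT and -3.41 ± 0.235 in Flox-labelled libraries (SD, n = 4), where library 4 was the highest of all 8 and libraries 1 to 3 were the lowest. The log2 ratio of Tbx3 to Tbx5 was -2.11 ± 0.149 and -2.10 ± 0.0397, respectively. These ratios are descriptions of chosen genes and carry no test.

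**Figure D3:**
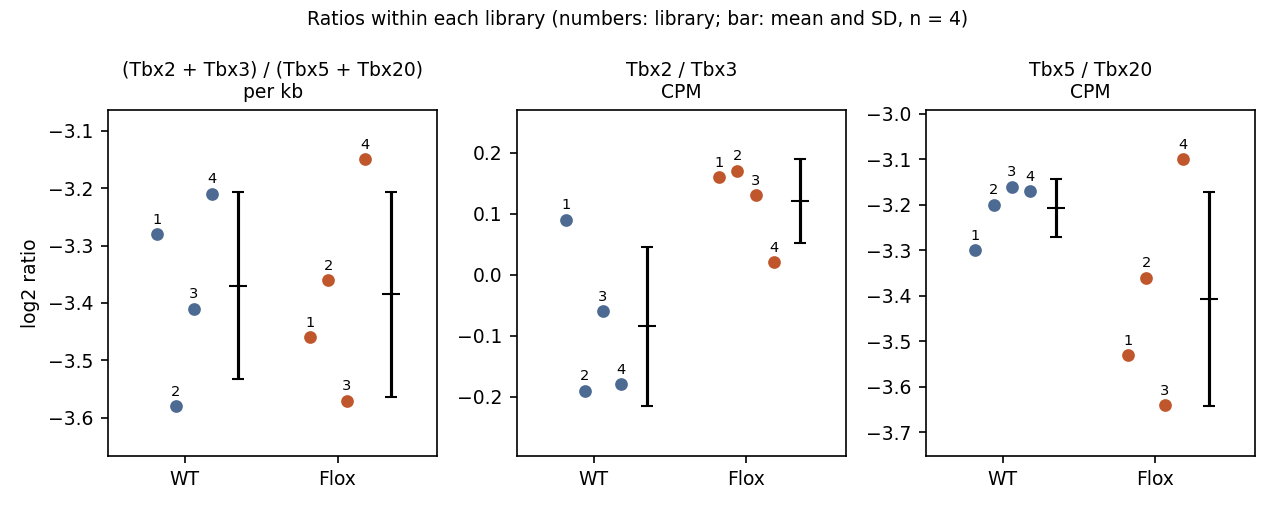
Log2 ratios between T-box factors within each WT (blue) and Flox-labelled (orange) library, numbered by library, with the mean and SD of 4 libraries. The ratio of repressors to activators per kb overlaps between groups (-3.37 and -3.39 on average), whereas the means of Tbx2 to Tbx3 (-0.08 and 0.12) and Tbx5 to Tbx20 (-3.21 and -3.41) each differ by 0.20 but overlap between groups. The y axes do not start at 0.

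The proteins that T-box factors work with were examined next, in a list of 12 cofactors and corepressors. This list and those below were chosen with earlier results of these data known, so their counts and medians describe chosen genes. All 12 were tested, and 2 passed the test, Nkx2-5 and Gata6, both higher in Flox-labelled libraries. A higher level at this threshold was found for 48 of all tested genes (0.312%). The median of the list was -0.01, with 6 members above and 6 below 0. Nkx2-5, the homeodomain partner of Tbx5 and Tbx20 on chamber promoters, was at 101.0, 96.4, 92.2 and 98.1 CPM in WT libraries. It was at 111.2, 110.9, 115.6 and 111.8 CPM in Flox-labelled libraries. The groups did not overlap, and the log2 fold change was 0.21 (SE 0.0334, edgeR adjusted p = 0.0194). The call was lost after correction for GC content and length (0.11, edgeR adjusted p = 0.119), with the Y-linked covariate (0.22, adjusted p = 0.0897), and without WT library 2, WT library 3 or Flox-labelled library 3 (0.19 to 0.21, adjusted p of 0.0632 to 0.0862).

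Gata6, a zinc finger factor that acts with Nkx2-5 and T-box proteins, was at 174.5, 175.7, 183.9 and 185.8 CPM in WT libraries. It was at 198.5, 204.5, 209.4 and 210.8 CPM in Flox-labelled libraries. Its groups did not overlap either, and the log2 fold change was 0.19 (SE 0.0344, edgeR adjusted p = 0.0342). The call was lost with the Y-linked covariate (0.22, adjusted p = 0.0688 in edgeR). It was also lost on leaving out any library other than Flox-labelled library 4 (0.18 to 0.21 on the log2 scale, edgeR adjusted p of 0.0502 to 0.126). Mef2c, a MADS-box activator of muscle genes, was at 114.7 ± 5.10 and 108.3 ± 2.82 CPM (SD, n = 4, log2 fold change -0.08, edgeR adjusted p = 0.449). Among the other T-box genes, Tbx18 was at 49.8 ± 2.25 and 54.0 ± 3.46 CPM (SD, n = 4), and its log2 fold change was 0.12 (interval 0.01 to 0.22, edgeR adjusted p = 0.416). All 6 epicardial markers lay at or above 0 as well, with a median of 0.10 and sums of 112.9 to 122.0 CPM in WT and 121.4 to 136.1 CPM in Flox-labelled libraries, and their part in the level of Tbx18 was not tested. Mga differed by -0.02 on the log2 scale (edgeR adjusted p = 0.904).

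**Figure D4:**
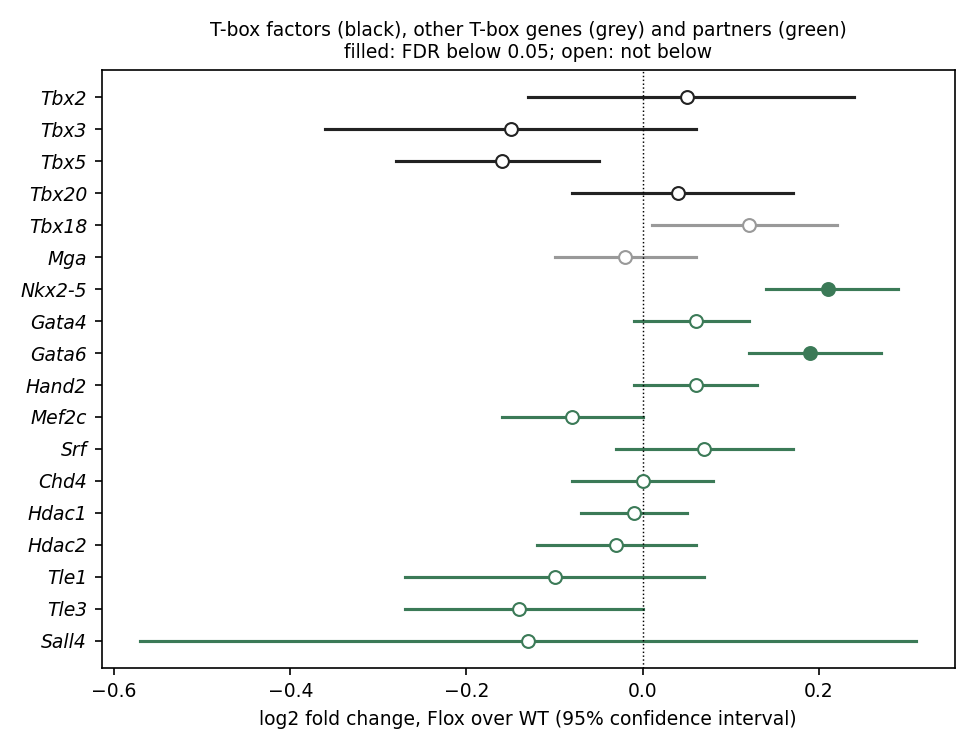
Log2 fold changes, Flox-labelled over WT, with 95% confidence intervals for the 4 tested cardiac T-box factors (black), Tbx18 and Mga (grey) and 12 partners (green). Filled points passed an FDR of 0.05, which was reached by Nkx2-5 (0.21) and Gata6 (0.19) and by none of the T-box genes.

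Genes of the working chamber, which activators switch on and repressors switch off, lay on both sides of 0. All 12 listed genes were tested and none passed at FDR 0.05, although 5 had an unadjusted p below 0.05 in edgeR, which 10.5% of all tested genes reached. The median was -0.03, with 5 members above and 7 below 0. Nppa, whose promoter carried the full T-box letters shown above, was at 1852, 2113, 1581.1 and 2421.2 CPM in WT libraries. It was at 1642, 1717.5, 1495 and 2207.7 CPM in Flox-labelled libraries. The groups overlapped widely and library 4 was the highest in each, with a log2 fold change of -0.17 (interval -0.44 to 0.10, edgeR adjusted p = 0.684). Gja5, the connexin of fast-conducting trabecular myocardium, was at 124.4 ± 12.7 and 109.6 ± 11.3 CPM (SD, n = 4, log2 fold change -0.19, edgeR adjusted p = 0.403).

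The chamber genes with the smallest p were Cited1, Bmp10 and Mycn. Cited1, a transcriptional coregulator of chamber myocardium, was at 169.8 ± 17.3 and 139.9 ± 5.17 CPM (SD, n = 4), and its log2 fold change was -0.28 (edgeR adjusted p = 0.0693), and the groups did not overlap. Bmp10, a ligand secreted by trabecular cardiomyocytes, was at 109.1 ± 13.3 and 75.0 ± 15.2 CPM (SD, n = 4), and its log2 fold change was -0.55 (edgeR adjusted p = 0.0606). Mycn, which drives proliferation of ventricular cardiomyocytes and is a target of Tbx2 repression, was at 36.5 ± 2.22 and 41.8 ± 2.08 CPM (SD, n = 4), and its log2 fold change was 0.20 (edgeR adjusted p = 0.134). The groups of Mycn did not overlap either, whereas those of Bmp10 did. Mycn lay on the opposite side of 0 from Cited1 and Bmp10. The number of chamber genes that passed ranged from 0 to 4 over the alternative settings.

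Of the pacemaker and conduction genes, 10 of 12 were tested and 2 passed, Cacna2d2 and Etv1, both lower in Flox-labelled libraries. A lower level at this threshold was found for 33 of all tested genes (0.214%). The median of the list was -0.28, with 8 members below and 2 above 0, and 6 had an unadjusted p below 0.05 in edgeR, against 10.5% of all tested genes in either direction (5.41% lower). Because the list was chosen with earlier results of these data known, these figures are a description and not an independent result. Cacna2d2, an auxiliary subunit of voltage-gated calcium channels, was at 51.8, 54.0, 50.9 and 58.8 CPM in WT libraries. It was at 31.9, 38.3, 33.5 and 40.1 CPM in Flox-labelled libraries. Every Flox-labelled library lay below every WT library, and the log2 fold change was -0.59 (SE 0.0679, edgeR adjusted p = 0.0059), a call kept under all 20 alternative settings (-0.64 to -0.53). Etv1, an ETS factor of trabecular and fast-conducting myocardium, was at 40.4, 40.0, 41.0 and 35.2 CPM in WT libraries. It was at 29.6, 32.0, 30.1 and 33.9 CPM in Flox-labelled libraries. These groups did not overlap either, and the log2 fold change was -0.32 (SE 0.0574, edgeR adjusted p = 0.0373). The call for Etv1 was lost with the Y-linked covariate (-0.33, adjusted p = 0.144 in edgeR), and without WT library 1, 2 or 3 or Flox-labelled library 1, 2 or 3 (adjusted p of 0.0723 to 0.139 in edgeR). Its log2 fold change stayed between -0.33 and -0.29 in these fits.

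Further pacemaker genes did not pass. Hcn4, the channel of the pacemaker current, was at 29.5 ± 2.25 and 24.3 ± 2.10 CPM (SD, n = 4, log2 fold change -0.29, edgeR adjusted p = 0.0941), and its groups overlapped. Cacna1d, the pore subunit of a pacemaker calcium channel, was at 17.7 ± 0.542 and 14.6 ± 0.990 CPM (SD, n = 4, log2 fold change -0.28, edgeR adjusted p = 0.0744), and its groups did not overlap. Isl1, a sinus node factor singled out after its values were seen, had the lowest log2 fold change of all lists, -0.94 (interval -1.57 to -0.30, edgeR adjusted p = 0.241), from 0.988 and 0.520 CPM. Isl1 had only 8 to 28 counts per library, and its groups overlapped. The atrial markers (Sln, Myl7, Myl4, Nr2f2, Stard10 and Dkk3) were below 0 in 6 of 6 cases, with a median of -0.18, and none passed at FDR 0.05. They summed to 1649.3 to 1861.8 CPM in WT and 1639.6 to 1786.4 CPM in Flox-labelled libraries, none was at 0, and their part in the pacemaker genes was not tested. Tbx3 itself differed by -0.15 on the log2 scale and did not pass.

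None of the 12 cushion and atrioventricular canal genes passed, and 2 had an unadjusted p below 0.05 in edgeR, against 10.5% of all tested genes. The median was -0.06, with 4 above and 8 below 0. Bmp2, the myocardial signal that induces Tbx2 in the canal, was at 9.92 ± 1.74 and 9.49 ± 1.99 CPM (SD, n = 4, log2 fold change -0.07, edgeR adjusted p = 0.932). Tgfb2, which drives the mesenchymal transition of cushion endocardium, was at 70.3 ± 1.25 and 71.2 ± 4.14 CPM (SD, n = 4, edgeR adjusted p = 0.940). Has2, which makes the hyaluronan of cardiac jelly, was at 4.80 ± 0.704 and 4.15 ± 0.388 CPM (SD, n = 4, edgeR adjusted p = 0.616). These ligands and matrix genes thus differed by less than or about the spread between libraries.

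Hey1 and Hey2, the Notch-responsive repressors that bound the Tbx2 domain on its atrial and ventricular sides, lay on opposite sides of 0. Hey1 was at 16.8 ± 1.35 and 13.7 ± 1.28 CPM (SD, n = 4, log2 fold change -0.30, edgeR adjusted p = 0.158). Hey2 was at 155.5 ± 5.52 and 165.8 ± 4.15 CPM (SD, n = 4, log2 fold change 0.09, edgeR adjusted p = 0.356), and its groups did not overlap. Sox9, a factor of cushion mesenchyme, was at 17.3 ± 1.69 and 15.3 ± 2.30 CPM (SD, n = 4, edgeR adjusted p = 0.564). The valve and cushion mesenchyme markers (Postn, Sox9, Twist1, Scx, Tbx18 and Cthrc1) had a median of -0.11, with 4 of 6 below 0 and none passing. The 2 above 0 were Scx and Tbx18, the latter given above as a factor of the epicardium and its derivatives. An unadjusted p below 0.05 in edgeR was reached by 3 of the 6, against 10.5% of all tested genes. Their sums were 771.1 to 912.2 CPM in WT and 703.4 to 819.0 CPM in Flox-labelled libraries.

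The program associated with Tbx1 did not pass the test in any gene. Of 10 outflow and second heart field genes, 8 were tested, none passed and none had an unadjusted p below 0.05 in edgeR, with a median of -0.06. The 3 with the smallest p were Sema3c, a guidance cue for neural crest cells in the outflow tract, at -0.17 on the log2 scale, Foxc1 at 0.16 and Foxc2 at -0.14, with edgeR adjusted p-values of 0.545, 0.599 and 0.774.

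**Figure D5:**
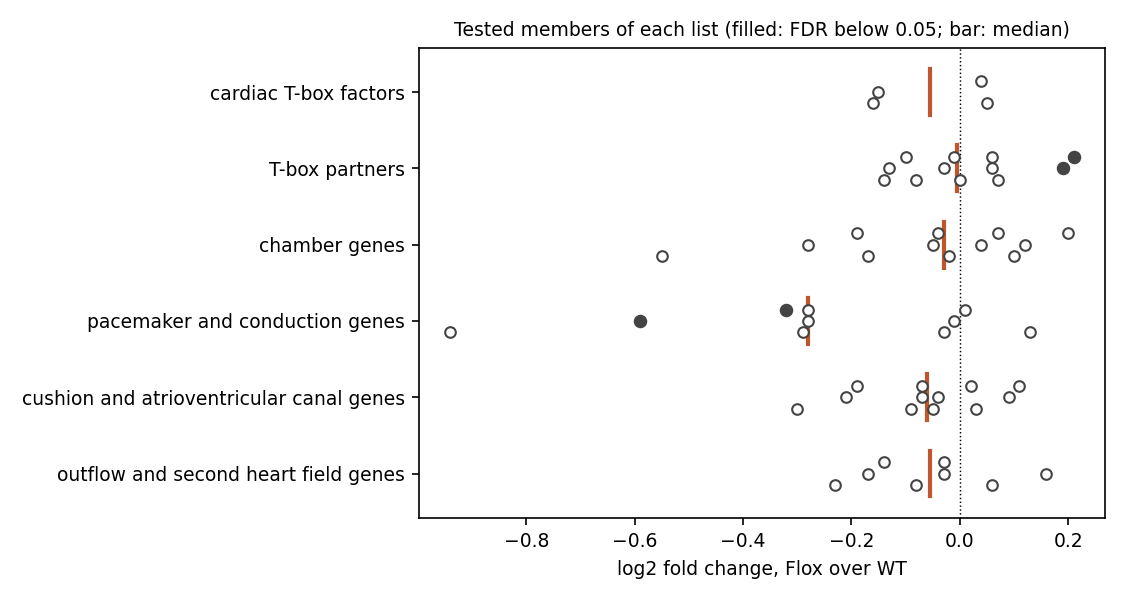
Log2 fold changes, Flox-labelled over WT, of the tested members of each gene list (circles, filled where FDR was below 0.05) with the median as a bar. The pacemaker and conduction list has the lowest median (-0.28) and 2 filled members, the partners have 2 filled members above 0, and the remaining lists have medians between -0.06 and -0.03 and none filled. The lists were chosen with earlier results of these data known.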

How the data were processed

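The authors deposited expected counts per Ensembl gene, which RSEM 1.3.1 estimates by dividing reads that match several genes, after cutadapt trimming, on GRCm38 with Ensembl release 91 per the submitters' notes and the table's name. The aligner and strand setting are not given in the sources used here. Expected counts (18.1% not whole) were rounded, filtered with filterByExpr, scaled with TMM and compared with edgeR 4.0.16 in R 4.3.3 (glmQLFit, glmQLFTest, two-sided, group as the only term), with Benjamini-Hochberg adjustment over 15388 genes. SEs were derived from the F statistic. Positions and exonic lengths came from GENCODE M21 (53360 of 53465 identifiers matched). Fits were also run on simulated counts with planted changes larger than the differences seen for the tested T-box factors. Those runs do not measure the power to detect differences as small as these. Alternatives included DESeq2 1.42.0 and limma 3.58.1 voom.

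The members and gene lists were chosen with earlier results of these data known. Named genes were the members, Nrg1, listed genes that passed, the 3 smallest p of each list, and Nppa, Gja5, Hcn4, Bmp2, Hey1, Hey2, Tgfb2, Has2, Mycn, Tbx18 and Nkx2-5. For likeness, genes with a mean log2 CPM of at least 3 were ranked by Pearson's r.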

Additional observations from a re-analysis of the deposited data

Results flagged for a closer look

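Within each group of 4 libraries, a library was picked out where its gap to the nearest other took up more of the group's range than the 95% critical value of Dixon's test. Chance does this in about 1 in 20 groups, or 1.3 of the 26 groups examined. WT library 4 stood apart for Tbx3, at 12.6 CPM against 10.1 CPM in each of the other WT libraries. This is the WT library with the lowest Xist (0.176 CPM) and the highest Y-linked sum (171.2 CPM). WT library 2 stood apart for Mga, at 94.4 CPM against 100.4 to 101.2 CPM in the other WT libraries.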

How the results depend on the processing

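None of the 4 tested T-box factors passed an FDR of 0.05 under any of 20 alternatives in scaling, filter, test, rounding, covariates or libraries. Tbx3 (-0.21 to -0.01) and Tbx5 (-0.20 to -0.13) kept their direction. Tbx2 ranged from -0.01 to 0.16 and turned negative without WT replicate 2 (-0.0053). Tbx20 ranged from -0.04 to 0.10 and turned negative without Flox replicate 3 (-0.0151) and with the Y-linked covariate (-0.0362). The ratio of repressors to activators differed by -0.09 to 0.05, within the spread between libraries.

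Counts of calls moved more, and the cause was not tested. Over all genes, 81 calls became 338 without the filter, 242 with the likelihood ratio test, 195 with DESeq2, 190 at FDR 0.1, 16 with the Y-linked covariate, and 11 (without Flox replicate 3) to 142 (without Flox replicate 4) on leaving out a library. The 2 partner calls became 0 with the Y-linked covariate, 1 with the GC and length correction and 0 to 2 on leaving out a library. For chamber genes, 0 calls became 4 without the filter, 3 with the likelihood ratio test, 1 with DESeq2, 1 with the GC and length correction, 2 at FDR 0.1 and 0 to 1 on leaving out a library. For pacemaker genes, 2 became 4 without the filter, with the likelihood ratio test and at FDR 0.1, 1 with the Y-linked covariate, and 1 to 4 on leaving out a library. For cushion genes, 0 became 1 without the filter (Hey1).

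The labels do not say what a replicate number stands for, and not every same-numbered pair of libraries correlated above 0.1, so the numbers were not used as pairs. Each library nonetheless correlated best with its own number (0.0447 to 0.121, against -0.0877 to 0.0195 between different numbers), a hint from the data and not from the design. With the replicate block, 93 genes were called, 2 of them chamber genes (Bmp10 and Cited1) and 1 a pacemaker gene (Cacna2d2; Etv1 kept a log2 fold change of -0.32, adjusted p = 0.0577 in edgeR), and Tbx5 was at -0.16 (edgeR adjusted p = 0.115). Depth limits Tbx1 most, with 1 to 13 counts per library.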

Other observations

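Over the 8 libraries, the genes whose log2 CPM followed each factor most closely among 10057 genes were given by Pearson's r, as a description of libraries that share depth and group. They were Synj2 (0.986), Mfsd8 (0.966) and Aak1 (0.95) for Tbx2, and Tm2d3 (0.982), Zfp862-ps (0.98) and Creld1 (0.968) for Tbx3. For Tbx5 they were Dusp6 (0.969), Fkbp10 (0.962) and Actb (0.958), and for Tbx20 Flii (0.967), Uchl3 (0.961) and Exosc2 (0.944). None of the 12 is itself a T-box gene, but beside the tested factors only Tbx18 and Mga of this family were among the ranked genes. How high the top r runs for unrelated genes over 8 libraries was not tested. Among the factors themselves, r ran from -0.50 for Tbx3 with Tbx20 to 0.75 for Tbx3 with Tbx5, and Tbx2 had 0.43 with Tbx3 and -0.18 with Tbx5. With the Y-linked sum, r was 0.81 for Tbx3, 0.58 for Tbx5, 0.35 for Tbx2 and -0.56 for Tbx20. The r of Tbx20 with each of the other 3 tested factors lay between -0.50 and -0.44. These values rest on 8 libraries and were not tested, so they do not establish an opposition between Tbx20 and the other factors.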
